A study of Mus musculus with 7 samples.

Results

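The genes described here are 10 genes that build, move, sever or anchor actin filaments in the mammalian oocyte, chosen by their symbols from a table of 55364 genes. They are Fmn2, Spire1 and Spire2 (nucleation of straight filaments), Myo5b and Rab11a (vesicle transport along those filaments), Actr2 and Actr3 (the Arp2/3 complex), Cfl1 (filament turnover) and Ezr and Rdx (linkers of the cortex to the membrane). All 10 were listed in each of 7 libraries and passed the filter on low values that left 21780 genes for testing. Levels are given as TPM, a read count corrected for the length of each gene and brought to one sum in every library, so levels can be compared between genes.

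The RNA came from mini-oocytes, which are cells resembling oocytes that were made from mouse embryonic stem cells (mESCs) by forced expression of oocyte transcription factors. The 4F-mini-oocytes expressed the 4 factors Nobox, Figla, Tbpl2 and Lhx8, and the 8F-mini-oocytes expressed 8, the same 4 with Stat3, Dynll1, Sub1 and Sohlh1. The groups were 4F at day 7 (n = 2 libraries, 1000 cells pooled in each), 4F at day 21 (n = 3, 10 cells in each) and 8F at day 21 (n = 2, 10 cells in each). Both kinds came from one female parental line, BVSC H18, of hybrid 129/C57BL6 background, so each stands for 1 line. The paper describes the 8F cells as carrying an Npm2-mCherry reporter cassette and does not say whether the 4F cells did. The factors were fused to a destabilization domain, and Shield-1, which stabilizes the fusions, was left out of the fresh medium before the later collection. Every group was grown on poly-L-ornithine and laminin in S10 medium with stem cell factor and Y-27632, an inhibitor of kinases that act on actin and myosin, so no group without this inhibitor was measured. Nothing in the labels says that the libraries of a group came from separate cultures, and p-values therefore measure the spread between these samples, which may be technical. Day and number of pooled cells changed together and cannot be told apart.

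The estimated reads on genes ranged from 9051761 to 17190271 per library. The 10 most abundant genes took 28.5% to 31.8% of all TPM at day 7 and 10.2% to 13.98% at day 21. Replicates correlated at 0.905 at day 7, at 0.949 to 0.952 in 4F at day 21 and at 0.983 in 8F (Pearson's r across genes, which are not independent replicates). All 10 markers of growing oocytes, among them Zp3 and Gdf9, were above 1 TPM in every library. Their sum was 12743 and 15142 TPM at day 7, 36041, 35493 and 38231 TPM in 4F at day 21, and 31010 and 29977 TPM in 8F. Between 8F and 4F at day 21, 1 of the 10 markers was higher and 3 were lower by limma at FDR 0.05. That was 40% of them, beside 8.37% of all genes tested. Markers of trophoblast and simple epithelium summed to 1170 and 1744 TPM at day 7 and to between 37.4 and 148 TPM at day 21, with Cdx2 and Elf5 at 0 in both day 7 libraries. Mesenchyme markers stayed at or below 11.0 TPM and granulosa cell markers at or below 24.3 TPM in sum, with Inha at 0 in every library. Markers of pluripotent cells summed to 85.8 and 96.9 TPM at day 7, to 245, 243 and 359.7 TPM in 4F at day 21 and to 137 and 178 TPM in 8F. Of these 8 genes, 5 or 6 reached 1 TPM in each library. Nanog was at 0 in every day 21 library, Tdgf1 in every 4F library and Sox2 in both day 7 libraries. Markers of extraembryonic endoderm summed to 55.9 and 61.6 TPM at day 7, to 36.5, 52.0 and 47.4 TPM in 4F at day 21 and to 104 and 95.7 TPM in 8F. Of these 7 genes, 2 or 3 reached 1 TPM in each library. Sox17 and Foxa2 were at 0 in every 4F library, and no gene of this list was at 0 in 8F. The part of these 2 lists and of the growing oocyte markers in the differences described here was not tested.

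In the mouse oocyte, formin-2 and the Spire proteins together start the straight filaments of a cytoplasmic actin mesh. Vesicles that carry Rab11a serve as its moving nodes, and myosin Vb pulls them along the filaments towards the cell surface. The mesh brings the meiotic spindle to the cortex, which allows the very unequal division that forms a polar body. Under the membrane, the Arp2/3 complex builds branched filaments, cofilin severs old ones, and ezrin, radixin and moesin (the ERM proteins) tie the filaments to the membrane and to microvilli.

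Promoters were searched because several of the forced factors bind DNA at short known letters. Sequences are shown for the 3 genes higher at day 21 whose windows held the letters of Nobox or Lhx8. RefSeq promoter windows of 300 bases (250 before and 50 after the annotated start, build GRCm38.p6) were matched for 8 of the 10 genes, Rdx with 2 windows. Spire1 and Myo5b were not matched. Both strands were searched. The letters searched for Nobox were TAATTG, its variant TAATTA and a further variant TAGTTG. For Lhx8 they were TGATTG, for Figla the E-box letters CANNTG, and for the TATA box TATAAA. The windows shown are chr1:174501575-174501874 (plus strand) for Fmn2, chr9:52046900-52047199 (plus strand) for the upstream window of Rdx and chr9:64737707-64738006 (minus strand) for Rab11a. Capitals mark the Nobox letters in Fmn2 and Rdx and the Lhx8 letters in Rab11a, and each sequence reads 5′ to 3′.
Fmn2: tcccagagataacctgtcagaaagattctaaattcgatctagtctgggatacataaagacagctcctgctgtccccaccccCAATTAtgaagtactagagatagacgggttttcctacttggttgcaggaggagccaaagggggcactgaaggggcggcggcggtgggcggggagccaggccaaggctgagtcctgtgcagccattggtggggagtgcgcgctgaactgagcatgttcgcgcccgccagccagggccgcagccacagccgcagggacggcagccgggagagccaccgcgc
Rdx: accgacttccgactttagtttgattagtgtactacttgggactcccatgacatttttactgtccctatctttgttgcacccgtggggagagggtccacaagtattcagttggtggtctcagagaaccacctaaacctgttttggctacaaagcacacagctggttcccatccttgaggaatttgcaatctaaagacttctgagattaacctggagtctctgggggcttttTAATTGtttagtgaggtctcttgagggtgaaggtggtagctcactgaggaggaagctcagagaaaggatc
Rab11a: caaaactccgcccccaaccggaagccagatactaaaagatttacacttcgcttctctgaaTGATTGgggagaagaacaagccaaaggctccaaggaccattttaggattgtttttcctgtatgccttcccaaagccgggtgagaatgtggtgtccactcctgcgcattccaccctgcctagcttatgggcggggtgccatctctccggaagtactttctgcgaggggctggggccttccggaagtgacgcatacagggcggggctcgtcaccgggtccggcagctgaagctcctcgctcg

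The Nobox letters stood 169 bases before the start of Fmn2, there as CAATTA on the strand shown, and 20 bases before the upstream start of Rdx. They were found in 17.9% of the 32851 promoter windows of the reference. The Lhx8 letters stood 190 bases before the start of Rab11a and were found in 14.04% of all windows. Of the 4 higher genes with a matched window, 2 held the Nobox letters and 1 the Lhx8 letters. Cfl1, also higher, held none of the letters searched. Of the 4 other genes with a window, 0 held either. Whether matches were more frequent than over all windows was not tested. No window of the 8 genes held TATAAA, which 13.6% of all windows did. E-box letters, in 72.3% of all windows, were found for Spire2, Rab11a, Actr2, Actr3 and the upstream window of Rdx, and Fmn2, Cfl1, Ezr and the second window of Rdx held none. Such matches are descriptions of letters and not of binding, which was not measured. The windows ranged from 46.3% GC (upstream Rdx) to 72.3% GC (Spire2), beside a median of 52.7% over all windows.

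Rdx was the most abundant of the 10 genes in every group, at a mean of 1202 TPM at day 7, 2769 TPM in 4F at day 21 and 1826 TPM in 8F. Spire2 was the lowest in every group, at means of 11.5, 16.1 and 18.04 TPM. At day 7 the order below Rdx was Actr3, Cfl1, Myo5b, Actr2, Ezr, Rab11a, Spire1, Fmn2 and Spire2. The libraries of Actr3 and Cfl1, of Cfl1 and Myo5b, and of Actr2 and Ezr overlapped there. In 4F at day 21 Myo5b came next after Rdx, and Ezr, Spire1, Actr2 and Fmn2 formed a run in which each neighbour overlapped the next (mean levels of 54.2 to 66.7 TPM). In 8F at day 21 no neighbours overlapped, and the rank of Fmn2 among the 10 was 6 and that of Ezr 9. The plot of levels shows these positions on a log axis.

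**Figure D1:**
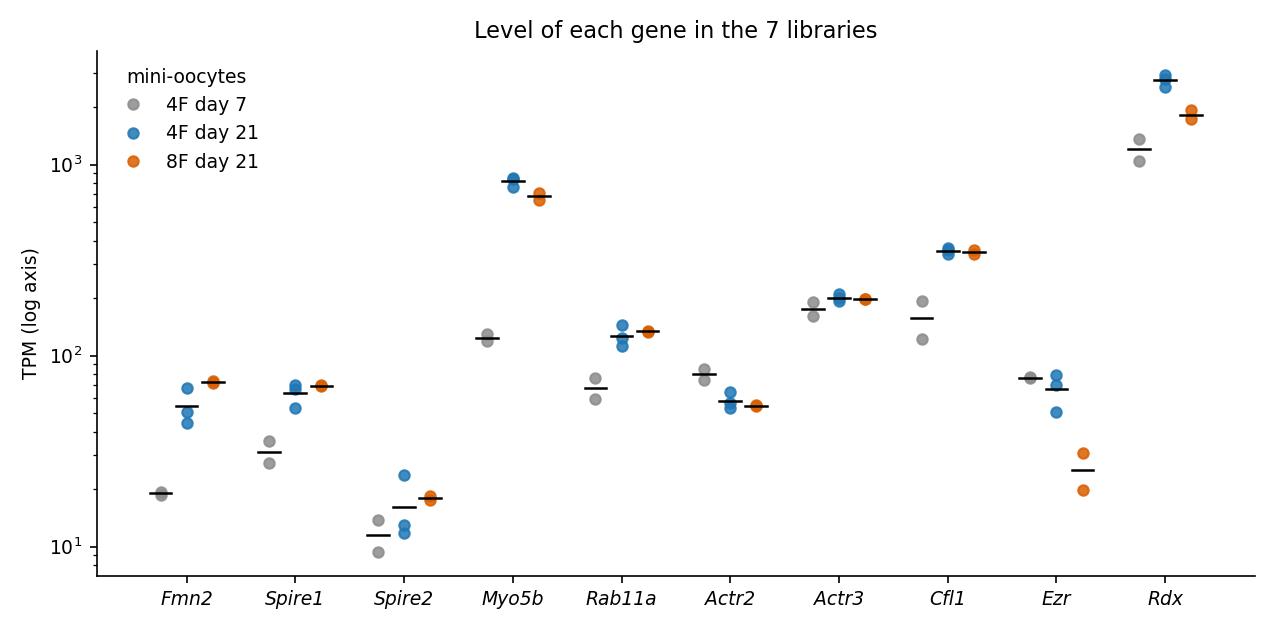
Level of each of the 10 genes in TPM (log axis), with 1 point per library and a line at the group mean, for 4F at day 7 (grey, n = 2), 4F at day 21 (blue, n = 3) and 8F at day 21 (orange, n = 2). Myo5b lies at 118.7 to 129.6 TPM at day 7 and at 654 to 852 TPM in every day 21 library, and Ezr lies lowest in the 8F libraries.

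The first comparison asked how the oocyte actin genes of 4F-mini-oocytes differed in level from day 7 to day 21. At day 21, 6 of the 10 genes were higher (Fmn2, Spire1, Myo5b, Rab11a, Cfl1 and Rdx), 1 was lower (Actr2) and 3 did not pass the test (Spire2, Actr3 and Ezr), by limma on log2(TPM + 1) with Benjamini-Hochberg adjustment over all genes at FDR 0.05. Of all genes tested, 40.6% passed, 25.3% as higher and 15.3% as lower. The libraries of the 2 groups did not overlap for 8 of the 10 genes, nor for 56.7% of all genes tested. The median log2 fold change was 0.95 over the 10 genes and 0.17 over all genes tested. With libraries rescaled by the median of ratios, the median over all genes moved from 0.17 to -0.06. The same rescaling again gave 6 of the 10 genes higher and 1 lower, quantile normalization gave 4 and 3, and voom on recovered reads gave 5 and 3. With the rescaling, all genes went from 5516 higher and 3331 lower to 4177 higher and 4454 lower. Over the 11 other settings tried, quantile normalization and voom among them, 7044 to 8681 of all genes passed. In bulk samples such as these, fewer cells of a type and less RNA per cell cannot be told apart.

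Fmn2 (ENSMUSG00000028354.13, chromosome 1, 174501825 to 174822729, plus strand, in mm10) encodes formin-2, the nucleator of the mesh. Its level was 18.6 and 19.4 TPM in the day 7 libraries and 67.8, 50.4 and 44.5 TPM in the day 21 libraries. The lowest day 21 library lay above both day 7 libraries. Its log2 fold change was 1.44 (95% interval 0.99 to 1.90, adjusted p = 0.00154, limma), which was 2.72-fold on the scale of TPM + 1 and 1.28 above the median of all genes. Between 580 and 3330 reads were estimated on Fmn2 per library.

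Spire1 (ENSMUSG00000024533.17, chromosome 18, 67488209 to 67610790, minus strand) and Spire2 (ENSMUSG00000010154.7, chromosome 8, 123332713 to 123369515, plus strand) encode the nucleators that work with formin-2 on the vesicles. Spire1 measured 35.5 and 27.2 TPM at day 7 and 70.3, 52.997 and 66.9 TPM at day 21. All day 21 values of Spire1 were above both day 7 values. Spire2 measured 13.7 and 9.38 TPM at day 7 and 12.9, 23.6 and 11.8 TPM at day 21. Here the groups overlapped, and the second day 21 replicate stood alone above the rest, on an estimated 123 to 262 reads per library. On the log2 scale the difference was 0.99 for Spire1 (95% interval 0.57 to 1.42, adjusted p = 0.00502) and 0.40 for Spire2 (-0.41 to 1.22, adjusted p = 0.390). Under quantile normalization the change of Spire1 was 0.53 with an adjusted p of 0.0507.

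Myo5b (ENSMUSG00000025885.18, chromosome 18, 74440936 to 74771493, plus strand), the motor that moves the vesicles, had the largest change of the 10 genes. It measured 118.7 and 129.6 TPM at day 7 and 842, 765 and 852 TPM at day 21. The groups were far apart compared with the spread inside either. The log2 fold change was 2.71 (95% interval 2.47 to 2.96, adjusted p = 3.8e-05, limma), or 6.56-fold, and 2.55 above the median of all genes. At day 7 its mean level was above that of 96.1% of the genes tested, and at day 21 above 99.6%.

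Rab11a (ENSMUSG00000004771.12, chromosome 9, 64715299 to 64737758, minus strand) encodes the GTPase that marks recycling endosomes and the vesicles of the mesh. It measured 58.9 and 76.1 TPM at day 7 and 124, 145 and 113 TPM at day 21. No day 21 library fell to the day 7 range. Its change on the log2 scale was 0.91 (95% interval 0.53 to 1.28, adjusted p = 0.00447, limma), and it did not pass under quantile normalization (0.29, adjusted p = 0.204) or with voom on recovered reads (0.36, adjusted p = 0.1503). A miRNA gene model, Gm47308, overlaps 107 of the 2992 exonic bases of Rab11a. Gm47308 measured 604 and 754 TPM at day 7 and 1522, 1718 and 1070 TPM in 4F at day 21, and its part in the level of Rab11a was not tested.

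Actr2 (ENSMUSG00000020152.7, chromosome 11, 20062304 to 20112913, minus strand) and Actr3 (ENSMUSG00000026341.16, chromosome 1, 125392905 to 125435727, minus strand) encode Arp2 and Arp3, the subunits that form the seed of a branch. Actr2 measured 74.8 and 85.01 TPM at day 7 and 64.5, 56.7 and 52.9 TPM at day 21. Actr3 measured 161 and 189.7 TPM at day 7 and 209, 193.5 and 199 TPM at day 21. The day 21 libraries were thus below those of day 7 for Actr2 and slightly above for Actr3. For Actr2 the log2 fold change was -0.46 (95% interval -0.77 to -0.14, adjusted p = 0.0312, limma). For Actr3 it was 0.19 (-0.06 to 0.44, adjusted p = 0.187), and it turned to -0.15 after median-of-ratios rescaling and to -0.41 (adjusted p = 0.0180) under quantile normalization. The call for Actr2 was lost with the moderated test without a trend (adjusted p = 0.1005), with only the 2 groups compared (adjusted p = 0.0574) and with any library left out other than 4F day 7 replicate 1 or 4F day 21 replicate 1 (adjusted p = 0.0659 to 0.133).

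The ratio of Actr3 to Actr2 within a library does not depend on its scaling. It was 2.16 and 2.23 at day 7, and 3.24, 3.41 and 3.76 in 4F at day 21. In 8F it was 3.58 and 3.64, inside the range of the 4F libraries. Actr2 took a mean 31.3% ± 0.51 (SD, n = 2) of the summed TPM of both genes at day 7 and 22.4% ± 1.31 (SD, n = 3) in 4F at day 21. An exact two-sided permutation test gave p = 0.2, the smallest that 2 against 3 libraries allow. Of the 53-base windows in the exons of Actr3, 25.1% also occur in other gene models, chiefly Gm8822 and Gm15899, and only uniquely mapped reads were counted. Gm15899 measured 59.96 and 24.5 TPM at day 7 and 9.52 to 16.9 TPM in 4F at day 21, and its part in the level of Actr3 was not tested.

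Cfl1 (ENSMUSG00000056201.8, chromosome 19, 5490455 to 5495201, plus strand) encodes cofilin-1, which cuts and disassembles filaments. It measured 122 and 192 TPM at day 7 and 367, 357 and 339.6 TPM at day 21. The day 7 libraries differed from each other more than those of day 21 did, and still lay well below them. The log2 fold change was 1.21 (95% interval 0.76 to 1.66, adjusted p = 0.00289, limma), or 2.31-fold. Snx32 lies on the opposite strand and covers 468 of the 2844 exonic bases of Cfl1. With no strand option stated for the counting, reads of the 2 genes there cannot be told apart, and Snx32 measured 24.7 and 33.8 TPM at day 7 and 76.1 to 85.4 TPM at day 21. Gm6180, a gene model that holds 172 of the 2898 windows of 53 bases in Cfl1, measured 3.75 and 1.15 TPM at day 7, 88.4, 165 and 165 TPM in 4F at day 21, and 5.45 and 5.51 TPM in 8F. The 4F libraries of day 21 therefore stood apart from both other groups for Gm6180 but not for Cfl1 itself, and the part of shared reads in this was not tested.

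Rdx (ENSMUSG00000032050.18, chromosome 9, 52047173 to 52088735, plus strand) encodes radixin and Ezr (ENSMUSG00000052397.8, chromosome 17, 6738041 to 6782784, minus strand) encodes ezrin, both ERM linkers. Rdx measured 1044 and 1361 TPM at day 7 and 2958, 2796 and 2552 TPM at day 21. Its day 21 libraries all lay above those of day 7, at a level above that of 99.9% of the genes tested. Ezr measured 76.8 and 76.1 TPM at day 7 and 50.6, 79.3 and 70.4 TPM at day 21. For Ezr the groups overlapped, since 1 day 21 library was above both day 7 libraries and the others below. The log2 fold change was 1.21 for Rdx (95% interval 0.84 to 1.59, adjusted p = 0.00141, limma) and -0.22 for Ezr (-0.81 to 0.38, adjusted p = 0.526). Ezr passed as lower with voom on recovered reads (-0.77, adjusted p = 0.0215) and under quantile normalization (-0.81, adjusted p = 0.0367).

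**Figure D2:**
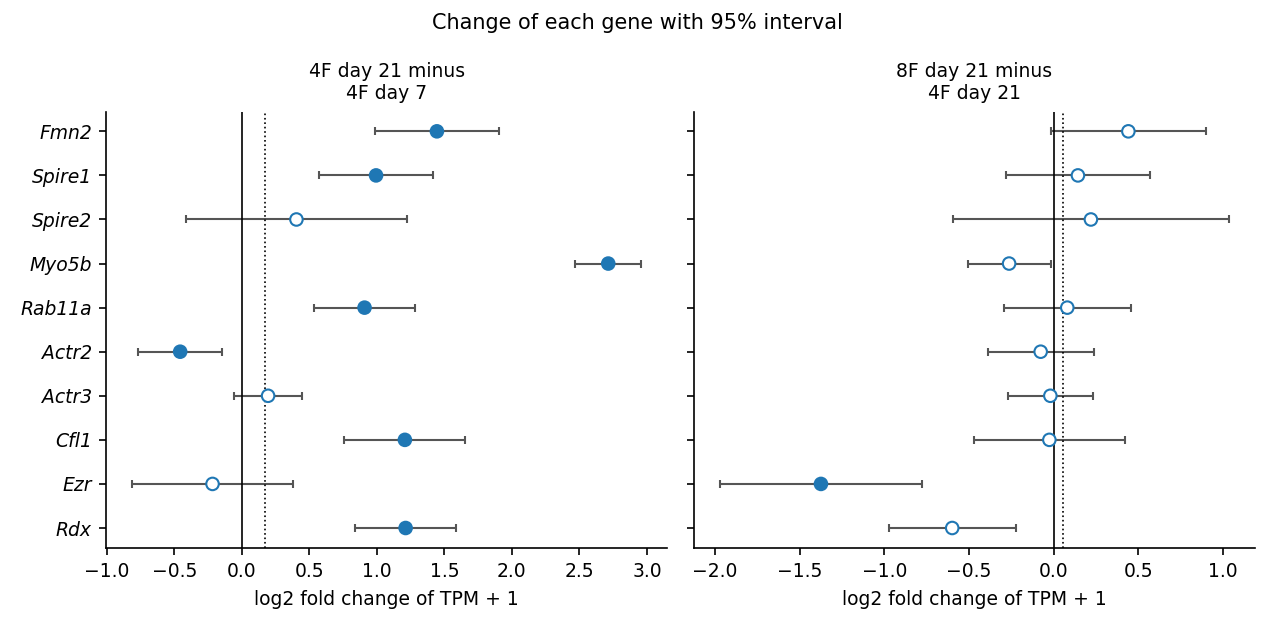
Log2 fold change of TPM + 1 for each gene (points, filled where FDR 0.05 was passed) with its 95% interval (bars), for day 21 minus day 7 in 4F (left) and 8F minus 4F at day 21 (right), and the median of all genes tested as a dotted line. Myo5b at 2.71 is the largest change on the left, and Ezr at -1.37 is the one filled point on the right.

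The second comparison asked how 8F-mini-oocytes differed from 4F-mini-oocytes at day 21. Ezr was lower in 8F and was the one gene of the 10 that passed the test, while 8.37% of all genes passed, 3.95% as higher and 4.41% as lower. The other 9 did not pass, although an unadjusted p below 0.05 was found for 3 of the 10 (Ezr, Rdx and Myo5b), beside 22.3% of all genes. For 4 of the 10 (these 3 and Fmn2) the libraries did not overlap, beside 43.8% of all genes. The median log2 fold change was -0.02 over the 10 genes and 0.06 over all genes tested. The 8F values are written with more decimals than the 4F values. The sequencing instrument and read length differed between libraries that the methods do not name. Such a batch, the reporter of the 8F cells and the factors cannot be told apart.

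Ezr measured 50.6, 79.3 and 70.4 TPM in 4F and 19.8 and 30.7 TPM in 8F. Both 8F libraries lay below the lowest 4F library, and below the day 7 libraries as well. The log2 fold change was -1.37 (95% interval -1.97 to -0.78, adjusted p = 0.0245, limma), that is, 2.59-fold lower. The call was lost in each fit that left out 4F day 21 replicate 2 (-1.24, adjusted p = 0.0614), 4F day 21 replicate 3 (-1.32, adjusted p = 0.0688), 8F replicate 1 (-1.07, adjusted p = 0.222) or 8F replicate 2 (-1.68, adjusted p = 0.0865), and with only the 2 groups compared (adjusted p = 0.0539) or no trend in the moderation (adjusted p = 0.0621), while the direction stayed. The sum of the trophoblast and simple epithelium markers was 53.4, 148 and 67.8 TPM in the 4F libraries and 37.4 and 45.0 TPM in the 8F libraries, with Krt19 at 0 in all 5. The sums of the extraembryonic endoderm markers, higher in both 8F libraries, did not overlap between the groups either. Nor did those of the pluripotent cell markers and of the growing oocyte markers, which were lower in both 8F libraries. The part of these lists in the difference was not tested.

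Rdx measured 2958, 2796 and 2552 TPM in 4F and 1926 and 1726 TPM in 8F. The 8F libraries were again below every 4F library, though above every day 7 library. Its log2 fold change of -0.60 (95% interval -0.98 to -0.22, adjusted p = 0.0701, limma) did not pass. With voom on median-of-ratios library sizes it did (adjusted p = 0.00945). The difference passed with voom on recovered reads (-0.46, adjusted p = 0.0119), a model added once the values had been looked at, and also with either day 7 library left out (adjusted p = 0.0297 and 0.0298).

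Myo5b measured 842, 765 and 852 TPM in 4F and 654 and 711 TPM in 8F. Its 8F libraries lay below the 4F libraries by less than the distance to day 7. The log2 fold change was -0.26 (95% interval -0.51 to -0.02, adjusted p = 0.193, limma). Fmn2 went the other way in its values, with 67.8, 50.4 and 44.5 TPM in 4F and 71.8 and 73.7 TPM in 8F. Both 8F values of Fmn2 were above the highest 4F value, and the log2 fold change of 0.44 (-0.02 to 0.90, adjusted p = 0.242) did not pass. Fmn2 passed with voom on recovered reads (0.58, adjusted p = 0.0373), and Myo5b with voom on median-of-ratios library sizes (-0.25, adjusted p = 0.0121).

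The remaining genes had overlapping libraries in 4F and 8F at day 21. Spire1 measured 69.1 and 70.0 TPM in 8F (log2 fold change 0.14, 95% interval -0.28 to 0.57) and Spire2 17.6 and 18.5 TPM (0.22, -0.60 to 1.04). Rab11a measured 133 and 134 TPM (0.08, -0.30 to 0.46), and Cfl1 measured 358 and 338 TPM (-0.03, -0.47 to 0.42). For the Arp2/3 pair, Actr2 measured 55.3 and 54.2 TPM (-0.08, -0.39 to 0.24) and Actr3 197.9 and 197.2 TPM (-0.02, -0.27 to 0.23). The signs of Rab11a, Actr2, Actr3 and Cfl1 turned under at least 1 other setting, so no direction is given for them. The intervals still include changes up to these bounds, and an adjusted p of 0.723 to 0.968 for these 6 genes does not show that the levels were equal.

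Set against 4F at day 7, 8F at day 21 gave 6 genes higher and 2 lower, and all 10 had libraries that did not overlap, as had 72.3% of all genes tested. Of all genes tested, 37.2% passed in this comparison, 24.2% as higher and 13% as lower. It shares its libraries with the other 2 comparisons and is not independent of them. On the higher side, log2 fold changes were 1.88 for Fmn2, 1.14 for Spire1, 2.45 for Myo5b, 0.99 for Rab11a, 1.18 for Cfl1 and 0.61 for Rdx. On the lower side they were -0.53 for Actr2 and -1.59 for Ezr (adjusted p = 0.0269 and 0.00530, limma), and Spire2 (0.62) and Actr3 (0.17) did not pass. The call for Rdx (adjusted p = 0.0313) passed in 3 of 11 other settings. It was lost after median-of-ratios rescaling (0.28, adjusted p = 0.332), under quantile normalization (0.54, adjusted p = 0.0538), with both voom fits (0.19 and 0.26), with no filter, with no trend and with only the 2 groups compared. It was also lost without 4F day 7 replicate 1 (0.42, adjusted p = 0.0888), 4F day 21 replicate 2 (adjusted p = 0.0551), 8F replicate 1 (0.53, adjusted p = 0.160) or 8F replicate 2 (0.69, adjusted p = 0.0902). The call for Actr2 was lost with no trend (adjusted p = 0.0889) and without 4F day 7 replicate 2 (-0.44, adjusted p = 0.0979), 8F replicate 1 (-0.55, adjusted p = 0.129) or 8F replicate 2 (-0.52, adjusted p = 0.144). Rab11a did not pass under quantile normalization (0.43, adjusted p = 0.0957).

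Shares within a family show which of several like genes carried the RNA, free of the scaling of a library. Rdx took a mean 93.4% ± 1.21 (SD, n = 2) of the summed TPM of the 3 ERM genes at day 7, 97.5% ± 0.57 (n = 3) in 4F at day 21 and 98.5% ± 0.57 (n = 2) in 8F. Ezr took 6.82% and 5.27% at day 7, 1.68%, 2.75% and 2.68% in 4F at day 21, and 1.02% and 1.75% in 8F. Msn, which encodes moesin, stayed at or below 0.60% in every library. The day 7 libraries stood apart from those of day 21 for both linkers, while the 4F and 8F libraries of day 21 overlapped.

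Among the myosin V heavy chains, Myo5b took 83.9% and 88.8% at day 7 and between 94.7% and 96.3% in the day 21 libraries. Myo5c fell by 2.35 on the log2 scale in 4F (adjusted p = 0.00265, limma), from 6.15 and 3.69 TPM to at most 0.22 TPM. Myo5a rose by 1.29 (adjusted p = 0.00481) but held a smaller share at day 21 (a mean of 4.37% in 4F against 10.3% at day 7). Rab11a took 51.4% and 57.1% of the 3 Rab11 genes at day 7 and 66.7% to 72.7% at day 21. Rab11b, its near relative, measured 43.6 and 46.5 TPM at day 7 and 45.8, 51.3 and 53.5 TPM in 4F at day 21, a change of 0.15 that did not pass (adjusted p = 0.406) and turned to -0.19 after median-of-ratios rescaling.

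In the ADF/cofilin family, Cfl1 took 40.4% and 45.1% at day 7 and 60.4% to 65.4% at day 21. Dstn (destrin, also called ADF) measured 139 and 175 TPM at day 7 and 122.5, 149.6 and 98.7 TPM in 4F at day 21, and its mean share went from 43.6% ± 3.69 (SD, n = 2) to 22.1% ± 3.61 (n = 3). Its change of -0.35 did not pass (adjusted p = 0.205, limma), though it did after median-of-ratios rescaling (-0.70, adjusted p = 0.0495). Fmn2 took 3.00% and 3.31% of the summed TPM of 14 formins at day 7, 3.17% to 4.86% in 4F at day 21 and 6.61% and 6.49% in 8F, where both libraries lay above all others. Spire1 took 72.2% and 74.4% of the Spire pair at day 7 and 84.5%, 69.2% and 85.02% in 4F at day 21, with overlap. Over 32 shares, the exact permutation tests reached p = 0.2 at best for comparisons of 2 against 3 libraries and 0.333 for 2 against 2, the smallest these designs allow, and the lowest adjusted values were 0.278, 0.582 and 0.381.

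**Figure D3:**
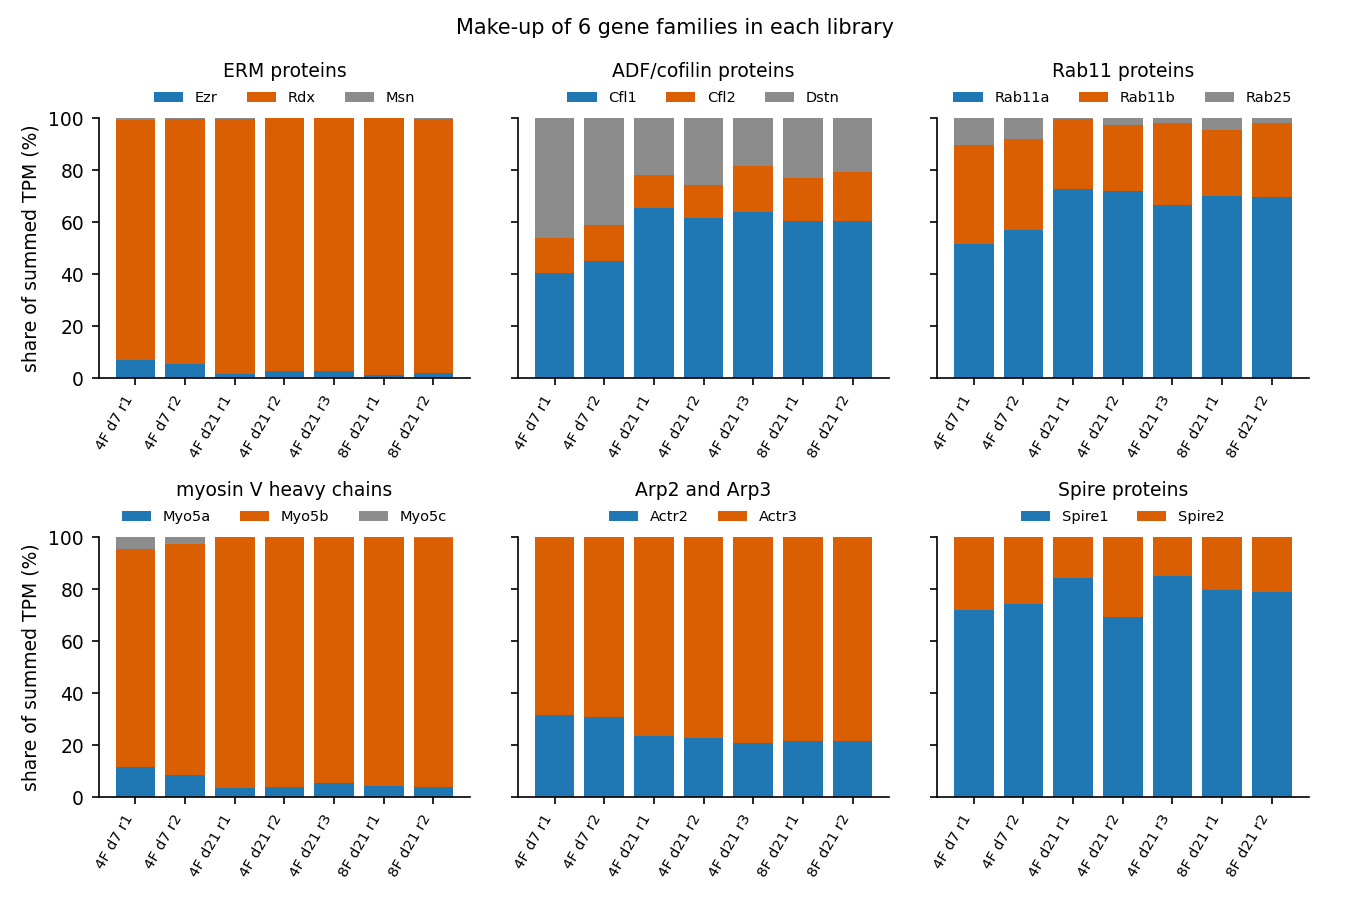
Share of the summed TPM (%) taken by each gene of 6 families in each of the 7 libraries, as stacked bars, with d7 and d21 for the day and r for the replicate. Rdx and Myo5b take 83.9% or more of the bar in every library, and the bars of Cfl1 and Rab11a are taller in every day 21 library than at day 7.

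The other genes of the actin machinery were counted in 7 lists of 120 genes in all, of which 116 were tested. Between day 7 and day 21 in 4F, 38 were higher and 32 lower (60.3% passed, beside 40.6% of all genes), with a median of 0.04. The split turned with the scaling, to 21 higher and 42 lower after median-of-ratios rescaling and 18 and 49 under quantile normalization. By voom it was 15 and 53, among fewer genes, since those without a matched exon length were left out. The median over all genes moved as well, to -0.06 after rescaling, 0.04 under quantile normalization and -0.32 by voom. Between 4F and 8F at day 21, 2 were higher and 12 lower (12.1%, beside 8.37%), with 2 higher and 9 lower after rescaling.

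Of 12 tested formins other than Fmn2, 7 were higher and 2 lower at day 21, or 5 and 2 after median-of-ratios rescaling. Fhod3, a formin best known from muscle sarcomeres, measured 14.7 and 28.8 TPM at day 7 and 197, 185 and 176 TPM at day 21 (log2 fold change 3.11, adjusted p = 0.000255, limma). Diaph2, one of the diaphanous formins, went from 13.9 and 16.6 TPM to 5.41, 6.86 and 8.17 TPM (-1.07, adjusted p = 0.0283). Daam1, a formin that binds Dishevelled, was the formin with the largest fall in 8F, from 294, 296 and 315 TPM in 4F to 129 and 150.2 TPM (-1.11, adjusted p = 0.00676). The levels of Daam1 and Fhod3 were thus above that of Fmn2 in every day 21 library.

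Of 8 further Arp2/3 subunit genes, 3 were higher and 1 lower at day 21 in 4F, but 1 was higher and 2 lower after median-of-ratios rescaling. Arpc5l rose by 0.78 (66.2 and 57.6 TPM to 97.2, 99.1 and 126 TPM, adjusted p = 0.00648, limma), a call lost with voom on recovered reads (0.26, adjusted p = 0.227) and under quantile normalization (0.16, adjusted p = 0.431). Arpc1a fell by 1.46 (53.4 and 48.9 TPM to 16.0, 19.8 and 18.4 TPM, adjusted p = 0.000843). None of the 8 passed between 4F and 8F by limma. An unadjusted p below 0.05 was found for 3 of the 8, beside 22.3% of all genes tested, and 1 passed with voom on recovered reads. Of 22 Arp2/3 activators and inhibitors, 9 were higher and 4 lower, and 4 and 6 after rescaling. Whamm, an activator that works on membranes of the secretory pathway, went from 31.3 and 10.6 TPM to 101, 88.5 and 76.0 TPM (2.20, adjusted p = 0.00548), and Washc3, a subunit of the endosomal WASH complex, from 16.6 and 11.4 TPM to 5.69, 3.04 and 4.78 TPM (-1.46, adjusted p = 0.0203). Cttn, which encodes the branch stabilizer cortactin, was lower in 8F, at 37.5 and 44.4 TPM against 59.9, 73.5 and 71.2 TPM in 4F (-0.72, adjusted p = 0.0483). It did not pass after rescaling (adjusted p = 0.0709), under quantile normalization (adjusted p = 0.0634) or with voom on recovered reads (adjusted p = 0.0859). Cttn passed with voom on median-of-ratios library sizes (-0.72, adjusted p = 0.0498).

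Of 21 genes of actin turnover and monomer binding, 6 were higher and 5 lower at day 21 in 4F, and 2 and 8 after median-of-ratios rescaling. Twf2, which encodes the monomer-binding protein twinfilin-2, went from 13.6 and 5.78 TPM to 29.8, 29.5 and 19.8 TPM (1.44, adjusted p = 0.0199, limma), and this call was lost with both voom fits (adjusted p = 0.0934 and 0.0584). Gsn, the filament-severing gelsolin, went from 48.4 and 87.7 TPM to 4.26, 6.78 and 0.98 TPM (-3.93, adjusted p = 0.00293). Cfl1 and Gsn, both severing proteins, therefore went opposite ways, under every scaling tried. Tmsb10, a thymosin that binds actin monomers, was the one gene of this list that passed between 4F and 8F, with 689, 768 and 554.7 TPM in 4F and 1563 and 1350.1 TPM in 8F (1.13, adjusted p = 0.0139).

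Of 14 genes of ERM partners and microvilli, 5 were higher and 5 lower at day 21 in 4F, and also after median-of-ratios rescaling. Vil1, which encodes villin, a bundler of microvillar filaments, went from 9.40 and 17.1 TPM to 87.8, 74.8 and 152 TPM (2.88, adjusted p = 0.00125, limma). In 8F it measured 22.3 and 26.8 TPM, a log2 fold change of -1.99 against 4F (adjusted p = 0.0245). Podxl, a membrane partner of ezrin in epithelial cells, went from 8.68 and 18.5 TPM at day 7 to at most 0.22 TPM in 4F at day 21 (-3.69, adjusted p = 0.00130), beside the epithelial marker sums given above, whose part in it was not tested.

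Of 13 genes of Rab11 and myosin V transport, 4 were higher and 2 lower at day 21 in 4F, and 3 and 4 after median-of-ratios rescaling. Rab11fip5, an effector that binds Rab11, went from 3.12 and 5.97 TPM to 26.1, 34.4 and 35.8 TPM (2.61, adjusted p = 0.000673, limma). Mlph, which encodes melanophilin, the link from Rab27a to myosin Va in pigment cells, measured 16.2 and 7.22 TPM at day 7 and was listed at 0 in all 3 day 21 libraries of 4F. Rab11fip2, an effector that binds both Rab11 and myosin Vb, was lower in 8F (16.1 and 18.7 TPM against 31.8, 32.3 and 27.8 TPM, -0.79, adjusted p = 0.0490). The adjusted p was 0.0504 after rescaling, 0.0518 with voom on recovered reads and 0.0579 under quantile normalization. Rab11fip2 passed with voom on median-of-ratios library sizes (-0.81, adjusted p = 0.0281).

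Of 26 genes of cortical actin, myosin II and their regulators, 4 were higher and 13 lower at day 21 in 4F, and 1 and 15 after median-of-ratios rescaling. Anln, the cortical scaffold anillin, went from 17.6 and 18.1 TPM to 66.7, 48.2 and 58.8 TPM (1.63, adjusted p = 0.000576, limma), and Rhoc, a small GTPase, from 14.6 and 14.7 TPM to 2.77, 1.71 and 0.15 TPM (-2.79, adjusted p = 0.00840). Between 4F and 8F, 1 was higher and 5 lower, and 1 and 4 after rescaling. Actg1, which encodes cytoplasmic gamma-actin, was the higher one, at 339.8, 363 and 338 TPM in 4F and 725 and 804 TPM in 8F (1.14, adjusted p = 0.00487). Myh10, a heavy chain of non-muscle myosin II, measured 42.8, 35.9 and 43.5 TPM in 4F and 20.1 and 20.9 TPM in 8F (-0.95, adjusted p = 0.0473), and the adjusted p was 0.0619 after rescaling and 0.0813 under quantile normalization.

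**Figure D4:**
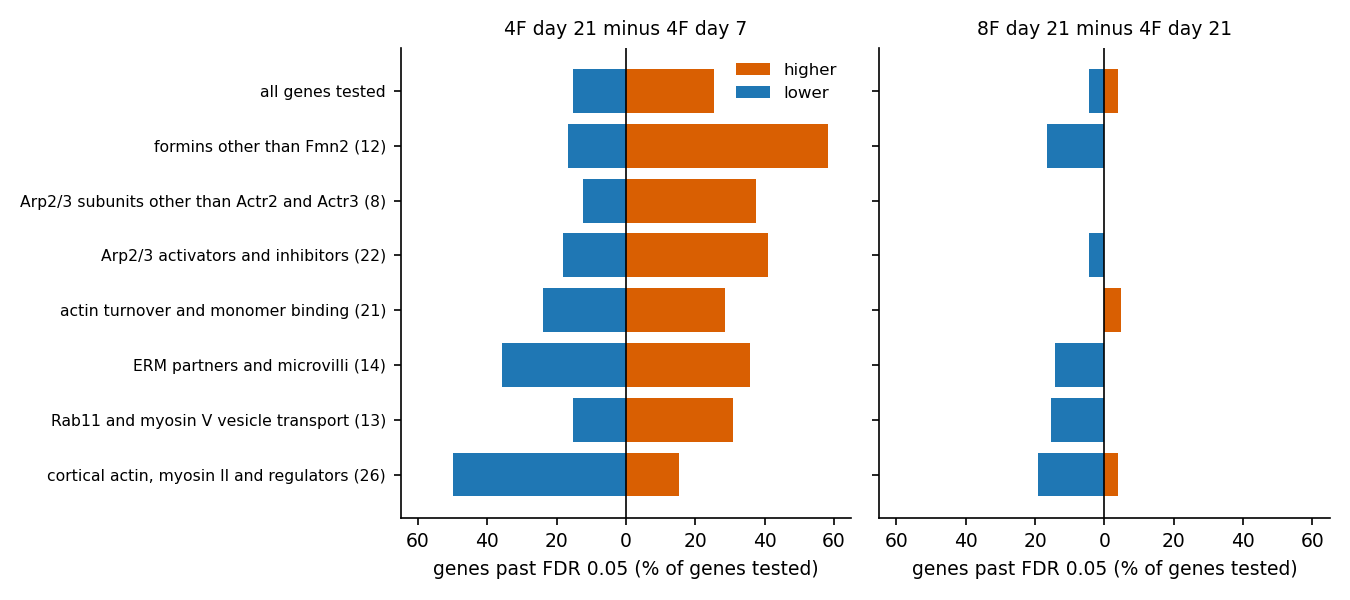
Percent of tested genes past FDR 0.05 in each of 7 actin gene lists (number tested in brackets) and over all genes tested, drawn to the right where higher (orange) and to the left where lower (blue), for day 21 minus day 7 in 4F (left) and 8F minus 4F at day 21 (right). The formins reach furthest to the right on the left panel and the cortical list furthest to the left, and the balance of both sides moves with the scaling as given in the text.

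Over the 7 libraries, the centred log2(TPM + 1) profiles that lay closest to that of Fmn2 were those of Bub3 and Nup98, at root mean square distances of 0.089 and 0.103 among 10571 candidates with a mean of at least 10 TPM. For Rab11a they were Anapc15 (0.048), Cdk1 (0.062) and Tomt (0.073). Ezr had no gene as close, and its nearest were Tex15 (0.132), Srsf9 (0.216) and Denr (0.221). These distances describe only 7 libraries, and a batch that followed the groups could not be told apart from them.

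**Figure D5:**
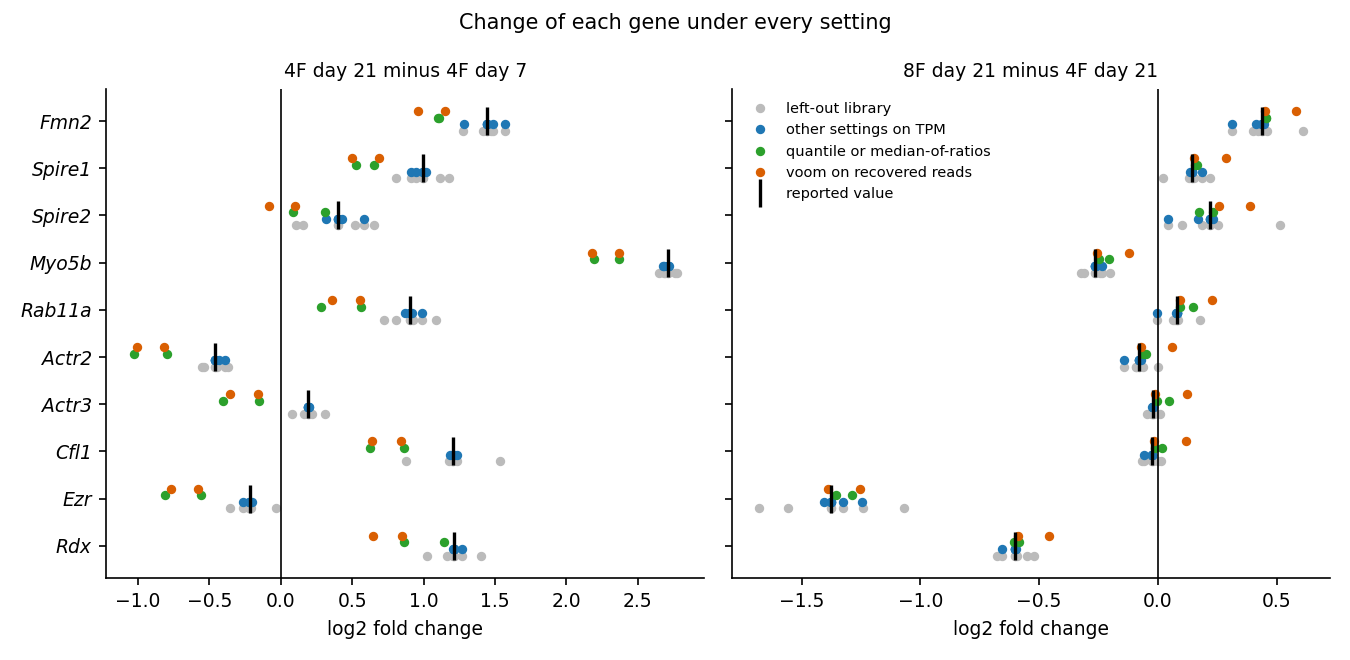
Log2 fold change of each gene as reported (black bar) and under each alternative (points), with libraries left out in grey, other settings on TPM in blue, quantile or median-of-ratios scaling in green and voom on recovered reads in orange, for day 21 minus day 7 in 4F (left) and 8F minus 4F at day 21 (right). Fmn2, Spire1, Myo5b, Rab11a, Cfl1 and Rdx stay right of 0 on the left panel and Actr2 and Ezr left of it, whereas points of Spire2 and Actr3 fall on both sides.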

How the data were processed

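The authors made SMART-seq Stranded libraries of 1000 (day 7) or 10 (day 21) pooled cells. Reads were trimmed with Trim Galore!, aligned to mm10 with Hisat2 and cleared of rRNA with Bedtools. Uniquely mapped pairs were counted per GENCODE gene with featureCounts, reads shared by genes being split among them and no strand option being stated. The deposited values are TPM per gene and library, computed by the authors from those counts, and were used as deposited. The number of unmapped per-sample columns was 0. Versions of these tools are not given in the sources used here.

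A gene was kept where 2 or more libraries reached 1 TPM (21780 of 55364 genes). The values entered limma (version 3.58.1, R 4.3.3) as log2(TPM + 1). The model held all 7 libraries in their labelled groups, with trended empirical Bayes moderation, Benjamini-Hochberg adjustment over all genes tested and FDR 0.05. Fold changes are therefore of TPM + 1 and understate the change of low genes. Reads per gene were recovered from the steps of low values. Precision rests on 2 or 3 libraries per group, and an estimated 9051761 to 17190271 reads on genes per library. The scripts were tested on simulated data.

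Loci and shared windows of 53 bases came from GENCODE on GRCm38, where 98.1% of gene versions matched, and promoters from RefSeq (GRCm38.p6). The versions of Spire1 and Rdx did not match. Their loci and exon lengths were taken by ID without version, and their recovered reads rest on these lengths. Shares within families were compared by exact two-sided permutation tests. From each actin list the text names, for the first 2 comparisons, the called gene with the largest log2 fold change in each direction, provided that its group of higher level averaged 10 TPM or more, and the 3 nearest genes in profile of Fmn2, Ezr and Rab11a, of which 1 for Fmn2 is not reported here. Genes of the families were named as family members. The 10 genes, the gene lists and the tests were chosen with earlier results of these data known. Alternatives covered the pseudocount (0.1 or 5), the filter (none or 5 TPM), the scaling, the moderation, the groups fitted, a replicate block and each library left out. The voom fits were added after the data had been seen.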

Additional observations from a re-analysis of the deposited data

How the results depend on the processing

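Of the 7 calls between day 7 and day 21 in 4F, those of Fmn2 (log2 fold change 0.96 to 1.57), Myo5b (2.18 to 2.78), Cfl1 (0.62 to 1.54) and Rdx (0.65 to 1.40) passed in all 11 other settings and with each of the 7 libraries left out, and the number called stayed between 6 and 8. Spire2 turned to -0.083 with voom on recovered reads. Actr3 turned to -0.15 after median-of-ratios rescaling, -0.41 under quantile normalization, -0.36 with voom and -0.16 with voom on median-of-ratios library sizes. It passed as lower in 2 of the 11 other settings (lowest adjusted p = 0.0174, moderated test). In 8F at day 21 against 4F at day 7, Actr3 turned to -0.16, -0.36, -0.23 and -0.17 in the same order. There it passed as lower in 1 of the 11 other settings (adjusted p = 0.0394, moderated test). The cause was not tested for any of these.

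Between 4F and 8F at day 21, small differences turned sign. Rab11a was -0.0033 with the replicate block and ranged from -0.0033 to 0.18 with libraries left out. Actr2 was 0.062 with voom. Actr3 was 0.047 under quantile normalization and 0.12 with voom, and ranged from -0.045 to 0.0097 with libraries left out. Cfl1 was 0.018 under quantile normalization and 0.12 with voom, and ranged from -0.067 to 0.0145 with libraries left out.

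The number of the 10 genes called between 4F and 8F was 1 in the reported fit, 0 without the trend, 0 with only the 2 groups compared, 0 with the replicate block, 3 with voom and 3 with voom on median-of-ratios library sizes, and 0 to 2 with libraries left out. Of the actin list genes, 14 were called in the reported fit, 2 without the trend, 1 with the block and 0 to 16 with libraries left out. Of all genes, 1822 were called, 994 without the trend, 164 with the block and 86 (without 8F replicate 1) to 2231 (without 4F day 7 replicate 1) with libraries left out. Between 8F at day 21 and 4F at day 7, leaving out a library gave 29 to 57 actin list genes and 3642 to 8377 of all genes, the lowest without an 8F library, where 1 sample stands for the group and is assumed to vary like the others.

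The replicate numbers did not pair the libraries, since deviations of same-numbered libraries correlated at -0.037 to 0.011. The replicate block left 6, 0 and 6 of the 10 genes called in the 3 comparisons, with Actr2 (adjusted p = 0.131 and 0.0644), Ezr (0.0786 between 4F and 8F) and Rdx (0.0793 between 8F and day 7) not passing. Over the 11 other settings, 7044 to 8681, 164 to 2231 and 7037 to 8122 of all genes were called in the 3 comparisons. Depth limits Spire2 most, with 123 to 262 estimated reads per library.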

Other observations

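Further genes of the actin lists are given here as values, chosen after their values were seen. Actb, which encodes beta-actin, measured 1068 and 1357 TPM at day 7, 739, 740.4 and 797 TPM in 4F at day 21, and 584 and 584.5 TPM in 8F. Its log2 fold change from day 7 to day 21 in 4F was -0.67 (adjusted p = 0.00665, limma), and that of 8F against 4F was -0.38 (adjusted p = 0.141). Flna, which encodes the crosslinker filamin A, changed by -2.69 (adjusted p = 0.000111). Pls1, a bundler of microvillar filaments, changed by 1.34 (adjusted p = 0.000211), and Slc9a3r1, an adaptor that binds ezrin, by 1.57 (adjusted p = 0.00356).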
